A study of Rattus norvegicus with 115 samples.

Results

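Tumour columns poor in leukocyte RNA were compared in 2 classes, 1 rich in matrix RNA and 1 rich in epithelial RNA. A column is 1 library of the deposited count table, named by rat and tumour. Levels are given as CPM, the count of a gene scaled to a common column total. Columns with at least 150 CPM of Ptprc, which encodes the leukocyte antigen CD45, were left out. A matrix-rich column had Col1a1 (a chain of type I collagen) at or above Epcam (an epithelial adhesion molecule), and an epithelium-rich column had Epcam above Col1a1 and at least 300 CPM. Of 107 tumour columns from 36 rats and 54 tumours, 62 columns from 32 rats were members and 45 were left out. There were 18 matrix-rich columns (14 rats, 18 tumours) and 44 epithelium-rich columns (26 rats, 33 tumours), and 0 in neither class. Of these rats, 8 had columns of both classes.

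The study induced mammary tumours in virgin Sprague Dawley rats with N-nitroso-N-methylurea (NMU), a carcinogen injected between 35 and 53 days of age, with 1 to 3 doses of 50 mg/kg each. Tumours were digested with collagenase, and RNA of sorted fractions labelled CD45, Ep and DN was sequenced in bulk. In the immunotherapy cohort (names starting with P) rats received vehicle, the TGF-beta receptor inhibitor LY2157299 (galunisertib), an antibody to the checkpoint ligand PD-L1, or both agents. In the characterization cohort (names starting with C) rats had NMU alone. By matrix-rich and epithelium-rich columns, the counts were 7 and 8 for vehicle, 4 and 12 for anti-PD-L1, 2 and 6 for LY2157299, 1 and 12 for the combination, and 4 and 6 for NMU alone. All of these tumours were carcinogen-induced, so none of the rats stands for an untreated gland.

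Fibroblasts lay down the fibrous matrix of a carcinoma: they secrete collagens, elastin and proteoglycans, and enzymes that crosslink or cut them. Luminal epithelial cells are held together by junctions built on keratins, claudins and cadherin, and the splicing factors Esrp1 and Esrp2 and the transcription factors Grhl2, Ovol2 and Elf5 maintain that state. TGF-beta, stored in the matrix in latent form, signals through the receptors Tgfbr1 and Tgfbr2, drives fibroblast activation and is opposed by LY2157299. Factors such as Zeb1, Snai1 and Snai2 bind the DNA letters CAGGTG and are known to repress epithelial genes.

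The promoters of 4 luminal genes that are described below are shown because they illustrate the letters these repressors bind. Each is the 250 bases before the gene's start in RefSeq, build GRCr8, printed from 5′ to 3′ along the gene's strand, with CAGGTG or its reverse complement CACCTG in capitals. The coordinates are those of RefSeq and not of the rn6 build named for the counts.
Rab25 (chr2:176304222-176304471, minus strand): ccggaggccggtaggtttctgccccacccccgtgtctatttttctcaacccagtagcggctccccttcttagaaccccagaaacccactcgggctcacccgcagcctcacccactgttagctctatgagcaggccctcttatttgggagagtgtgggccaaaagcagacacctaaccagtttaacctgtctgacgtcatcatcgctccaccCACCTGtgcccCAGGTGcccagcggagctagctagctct
Krt8 (chr7:135010340-135010589, minus strand): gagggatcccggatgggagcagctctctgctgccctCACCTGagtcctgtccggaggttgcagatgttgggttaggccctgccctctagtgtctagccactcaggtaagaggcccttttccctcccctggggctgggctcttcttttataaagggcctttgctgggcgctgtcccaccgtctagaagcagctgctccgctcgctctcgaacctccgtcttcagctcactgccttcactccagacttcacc
Tjp3 (chr7:9084174-9084423, plus strand): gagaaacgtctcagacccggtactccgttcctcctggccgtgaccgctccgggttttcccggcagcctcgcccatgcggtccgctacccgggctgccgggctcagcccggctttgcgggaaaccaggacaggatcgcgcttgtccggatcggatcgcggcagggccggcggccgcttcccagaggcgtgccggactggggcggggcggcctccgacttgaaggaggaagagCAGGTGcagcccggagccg
Krt18 (chr7:135035918-135036167, plus strand): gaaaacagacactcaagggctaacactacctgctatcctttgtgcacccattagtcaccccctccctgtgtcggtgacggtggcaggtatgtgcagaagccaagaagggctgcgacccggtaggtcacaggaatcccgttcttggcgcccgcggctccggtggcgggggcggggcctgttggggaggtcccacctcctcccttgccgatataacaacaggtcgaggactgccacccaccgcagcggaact
Rab25 held the letters 2 times, Krt8 and Tjp3 1 time each, and Krt18 0 times. Of 27457 promoters of the same length in RefSeq, 15.6% held CAGGTG on either strand. Of the 24 luminal genes listed, 12 had a promoter in the table and 10 of those held it. Fewer than 80% of the list had a sequence, so a comparison of the list with other promoters is void. A match is a description of the sequence and does not show that a factor binds there.

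The values that chose the classes are given as a description. Epcam was 11.9 to 2699 CPM (median 1070) in matrix-rich columns and 1217 to 4042 CPM (median 2102) in epithelium-rich columns. Col1a1 was 1517 to 115407 CPM (median 6179) in matrix-rich and 0.343 to 1866 CPM (median 72.2) in epithelium-rich columns. Matrix-rich columns therefore still carried epithelial RNA, and the classes differ in proportion rather than in presence. Nearest the cut, tumours P30T2, P33T1 and C9T2 had 1.18, 1.47 and 1.65 times as much Col1a1 as Epcam inside the matrix-rich class. On the other side, P7T1, P36T2 and P29T2 had 0.904, 0.877 and 0.702 times. The highest Ptprc kept was 124 CPM, in tumour P28T1, and the lowest left out was 165 CPM, in C5T1. One library stands apart: the matrix-rich column of P6T2, a vehicle tumour, had 115407 CPM of Col1a1, 99488 CPM of Col3a1 and 6.80 CPM of Krt18.

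**Figure D1:**
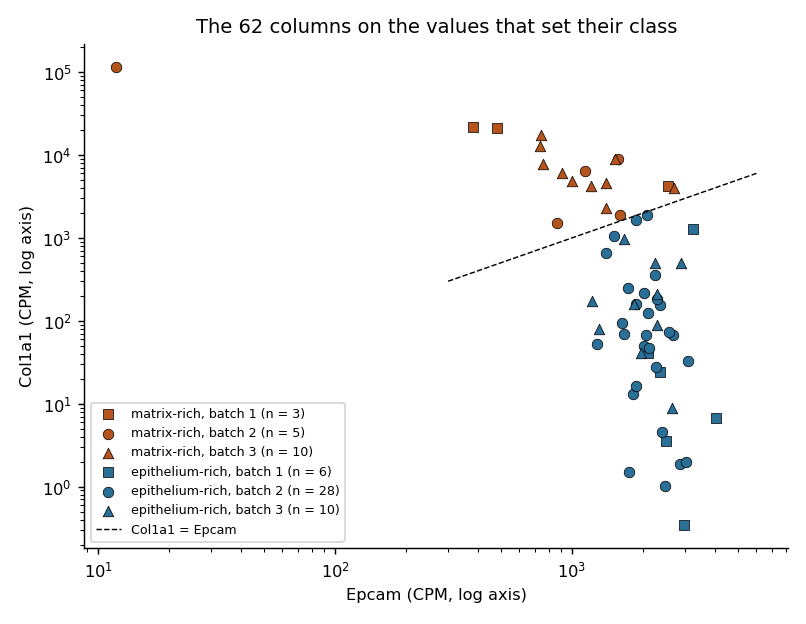
Epcam (horizontal, CPM, log axis) against Col1a1 (vertical, CPM, log axis) in the 62 columns, coloured by class and shaped by the batch in the deposited sample table; the dashed line marks equal values. Matrix-rich columns lie on or above the line by construction, and the point at the upper left is tumour P6T2 with 11.9 CPM of Epcam.

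A column name gives a tumour but no fraction, and only 4 members could be tied to 1 sample. The 3 tied to DN samples, P10T1, P23T1 and P38T2, were epithelium-rich, and the 1 tied to an Ep sample, C9T2, was matrix-rich. In the characterization cohort, whose labels list 0 DN samples, 4 of 10 member columns were matrix-rich. In the immunotherapy cohort, tumours listed without DN gave 0 matrix-rich and 4 epithelium-rich columns. Tumours listed without Ep gave 8 matrix-rich and 7 epithelium-rich columns. Of 17 tumours with 2 member columns, 6 had 1 of each class, 11 had both epithelium-rich and 0 had both matrix-rich. Class is therefore used below as measured RNA content and not as a sorted population.

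Total counts were 4880380 to 26635100 in matrix-rich columns and 2353560 to 25848300 in epithelium-rich columns. Batch and class were unequal: matrix-rich and epithelium-rich columns numbered 3 and 6 in batch 1, 5 and 28 in batch 2, and 10 and 10 in batch 3. For testing, counts of 1 rat in 1 class were summed, which gave 14 matrix-rich and 26 epithelium-rich units. Because the classes were selected on Col1a1 and Epcam of the same columns, the counts and adjusted p-values of the class comparison (edgeR quasi-likelihood test) describe which genes go with those markers and support nothing further. In bulk samples, fewer cells of a type and less RNA per cell cannot be told apart.

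Of 12379 genes tested, 2290 (18.5%) were higher and 1146 (9.26%) lower in matrix-rich units at an adjusted p under 0.05. Epcam and Col1a1 were left out. These shares are the background for the list counts below. The median log2 fold change of all genes was 0.03 with TMM scaling and -0.15 with total-count scaling, and 66.65% of the calls were higher with the former and 46.75% with the latter. The collagens, fibroblast genes and mesenchymal transcription factors were called higher in every tested member, while the lowest value of a luminal gene was -1.33. Within batches the counts were 0 higher and 0 lower in batch 1, 1135 and 392 in batch 2 and 2052 and 1199 in batch 3. Within the 8 rats with both classes, where the rat is the block, 1649 genes were higher and 946 lower. Of these, 1846 had the same call as in the comparison over all rats and 1, the casein gene Csn2, had the opposite call.

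Structural matrix genes had the widest gap. Col3a1, which encodes type III collagen, was 1379 to 44596 CPM per rat (median 14709) in matrix-rich units and 9.50 to 7510 CPM (median 168) in epithelium-rich units. The ranges overlapped through single rats: the highest epithelium-rich value was from rat C7 and the lowest matrix-rich value from P4. The log2 fold change was 4.88 ± 0.74 (SE; adjusted p = 2.59e-06). Per column, Col3a1 in the vehicle tumours was 1379 CPM in P4T1, 6211 in P8T2, 9355 in P6T1, 9360 in P8T1, 18199 in P5T2, 20007 in P5T1 and 99488 in P6T2. All 4 anti-PD-L1 columns lay within that range, at 5327 in P30T2, 10424 in P29T1, 21219 in P24T2 and 22258 in P26T2. LY2157299 columns were at 18083 and 20669 CPM, the combination column at 4926, and those of NMU alone at 2736, 3240, 32849 and 44596. The treatment groups thus overlapped in Col3a1.

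All 12 tested genes of the collagen list were called higher, with a median log2 fold change of 3.86 against 0.03 over all genes. Col5a3 and Col5a2, chains of type V collagen that nucleates fibrils, had log2 fold changes of 4.79 ± 0.59 and 4.02 ± 0.53. Col14a1, a fibril-associated collagen, was the smaller of the named ones at 2.57 ± 0.33, with 142 to 913 CPM against 3.03 to 181 CPM. Col1a2, the partner chain of Col1a1, was nearly uncounted: 1 to 14 reads in the 3 batch 1 columns, 0 to 39 reads in the 5 batch 2 columns (4 at 0) and 45 to 705 reads in the 10 batch 3 columns. Col3a1 exceeded Col1a2 by 299 to 876 times in batch 3 and by 39158 to 121180 times in batch 1. Col1a2 was not among the 12 genes tested between the classes, and the reason for its low value was not tested.

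Elastic fibre and matricellular genes stood with the collagens. Of the 21 genes tested for glycoproteins and proteoglycans, 17 were higher and 0 lower, with a median of 3.82. Eln, the elastin gene, had a log2 fold change of 5.61 ± 0.79, the largest of any called gene whose average log2 CPM was 3 or more. Its level was 227 to 7709 CPM (median 1237) in matrix-rich and 0 to 361 CPM (median 21.5) in epithelium-rich units. Thbs2, a matricellular inhibitor of vessel growth, was at 64 to 3063 CPM against 0 to 262 CPM (log2 fold change 5.01 ± 0.73). Fn1, fibronectin, was at 192 to 3101 CPM against 0 to 342 CPM (4.27 ± 0.51). Fbln1 and Fbn1, which build microfibrils, differed by 4.21 ± 0.48 and 4.30 ± 0.53. The 4 members that were not called were Ltbp1, Fmod, Thbs1 and Ltbp2.

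Genes of matrix crosslinking and proteolysis differed less than the matrix genes themselves. Their list holds Serpinh1, Pcolce, Timp1, Timp2 and Timp3 beside the enzymes. Of 20 tested, 18 were higher and 0 lower, with a median of 2.35. Loxl1, which crosslinks elastin, and Mmp2, a gelatinase, had log2 fold changes of 4.99 ± 0.70 and 4.93 ± 0.65, with medians of 713 against 19.8 CPM and 2103 against 56.5 CPM. Serpinh1, the collagen chaperone of the endoplasmic reticulum, was at 408 to 4783 CPM against 70 to 458 CPM, and Mmp14, which activates Mmp2, at 442 to 5212 CPM against 146 to 965 CPM. Their log2 fold changes were 2.85 ± 0.29 and 2.44 ± 0.27, and epithelium-rich units also held RNA of both genes at a clear level. Cpxm1, a carboxypeptidase-like secreted protein, differed by 5.50 ± 0.69. Mmp9 and Mmp13 were not called.

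Only 18 of 12379 genes (0.145%) had every matrix-rich rat above every epithelium-rich rat, and 0 (0%) had every matrix-rich rat below. Mgp, the matrix Gla protein that inhibits calcification, was at 551 to 5896 CPM in matrix-rich units and 8.18 to 414 CPM in the others. Igfbp4, a binding protein of insulin-like growth factors, was at 939.9 to 6580 CPM against 0 to 934 CPM, so its ranges nearly touched. Crabp1, a retinoic acid carrier, was at 121 to 1286 CPM against 0 to 95.6 CPM. Cdh11, the cadherin of mesenchymal cells, was at 48.1 to 259 CPM against 0 to 44.9 CPM. Col5a3 was among them, at 103.2 to 869 CPM against 0 to 96.0 CPM. The others were Gpr153, Pcdh7, Rem1, Ptgir, Dnm1, Scube1, F5, Pcdh19, Fxyd6, Septin5, Shc4, Gask1b and Dnm3. All 18 were named for this property after their values were seen.

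Fibroblast and mesenchymal identity genes moved with the matrix. All 15 tested fibroblast markers were higher (median 3.66). Pdgfra and Pdgfrb, receptors of platelet-derived growth factor, were at 39.8 to 386 CPM against 0 to 47.2 CPM and at 74.2 to 665 CPM against 0 to 123 CPM, with log2 fold changes of 4.28 ± 0.57 and 4.64 ± 0.66. Vim, the intermediate filament vimentin, differed by 2.66 ± 0.39. All 18 tested mesenchymal transcription factors were also higher (median 2.66). Several lists share members: Twist1, Twist2, Prrx1 and Gli1 are in both of these, so their counts are not separate. Twist2 differed by 4.37 ± 0.67, from a median of 1.04 CPM in epithelium-rich to 50.5 CPM in matrix-rich units. Zeb1, a repressor of epithelial genes, was at 34.4 to 181 CPM against 0 to 60.6 CPM (3.44 ± 0.53). Tcf4 and Twist1 differed by 2.56 ± 0.36 and 2.60 ± 0.40.

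**Figure D2:**
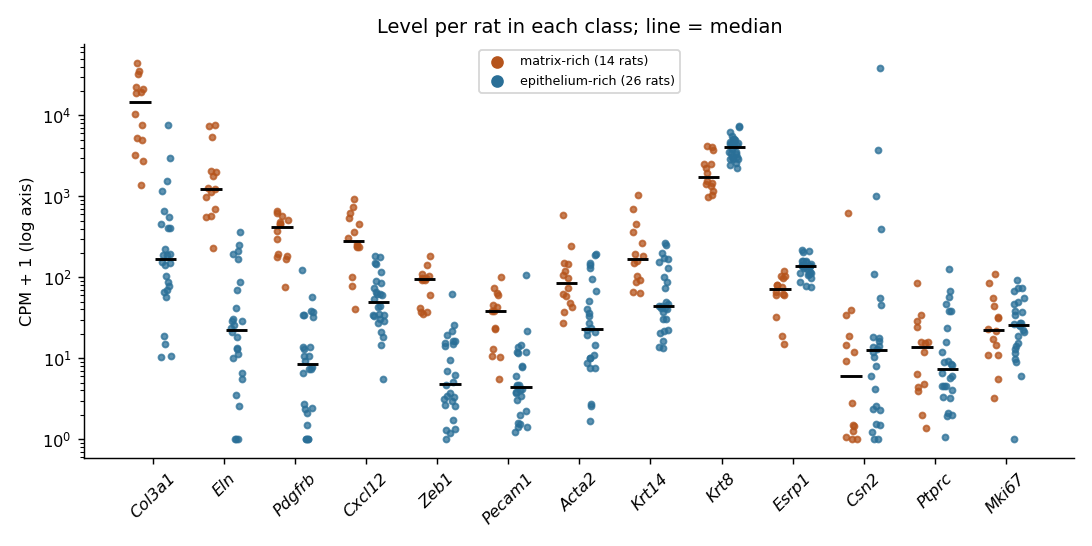
Level per rat (CPM + 1, log axis) of 13 genes in the 14 matrix-rich and the 26 epithelium-rich units, 1 point per rat, with the median as a line. Col3a1, Eln and Pdgfrb separate the classes with a few overlapping rats, Krt8 and Esrp1 overlap with lower matrix-rich medians, and Ptprc and Mki67 overlap throughout.

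Vessel and muscle genes were also higher in matrix-rich units. Of 13 tested endothelial genes, 9 were higher and 0 lower (median 2.12), beside 18.5% and 9.26% over all genes. Emcn, Cdh5, Flt1 and Prox1 were not called. Pecam1, an adhesion molecule of endothelial cells, had a median of 33.9 CPM in matrix-rich and of 3.65 CPM in epithelium-rich columns. It was at 0 reads in 0 of 18 and 0 of 44 columns, and its highest values were 99.5 and 105.5 CPM. The summed level of the 14 endothelial genes was 161 to 1237 CPM (median 429) per matrix-rich rat and 99.8 to 1459 CPM (median 176) per epithelium-rich rat. In batch 1 alone the median of the endothelial list was 0.41 and Vwf, the von Willebrand factor gene, was at -0.48. Of 12 smooth muscle and pericyte genes, 9 were higher and 0 lower (median 1.58), with summed levels of 407 to 5670 CPM against 98 to 1750 CPM. Rgs5 and Cspg4, pericyte genes, differed by 3.49 ± 0.75 and 3.06 ± 0.62, and Cspg4 was not called with the rat as block (edgeR adjusted p = 0.0815). The part of vessel cells in the other differences was not tested.

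Acta2, smooth muscle actin, which marks myofibroblasts, pericytes and myoepithelial cells, was less even. It was at 25.9 to 590 CPM (median 84.9) in matrix-rich and 0.670 to 195 CPM (median 21.9) in epithelium-rich units. The log2 fold change was 1.56 ± 0.52 (adjusted p = 0.0219), and the ranges overlapped widely. Without rat P4, which holds the highest value, it was 1.14 with an adjusted p of 0.103 by edgeR, and without C3 1.37 with 0.0518. In the immunotherapy cohort alone it was 1.12 with 0.113, so the call over all rats depends on single rats. With the rat as block Acta2 was higher by 2.40 (edgeR adjusted p = 0.00201).

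Luminal genes were lower by a modest amount, which ran from -0.18 for the least changed gene to -1.33 for Elf5. Of 21 tested, 0 were higher and 15 lower, beside 18.5% and 9.26% over all genes, and the median log2 fold change was -0.81. Krt8, a luminal keratin, was at 986 to 4203 CPM (median 1723) in matrix-rich and 2254 to 7298 CPM (median 4025) in epithelium-rich units, a log2 fold change of -0.82 ± 0.22. Krt8 was not called with the rat as block, at -0.80 (edgeR adjusted p = 0.0753). Rab25, a trafficking GTPase of epithelia, and Tjp3, a tight-junction scaffold, differed by -1.02 ± 0.17 and -0.94 ± 0.15. Esrp2 and Esrp1, the epithelial splicing factors, differed by -0.98 ± 0.19 and -0.84 ± 0.17, with Esrp1 at 14.2 to 119 CPM against 75.7 to 216 CPM. Cdh1, Elf3, St14, Cldn4 and Cldn7 were among those not called. Gene by gene, the epithelial deficit was therefore far smaller than the matrix excess.

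Of 17 epithelial transcription factors, 0 were higher and 9 lower (median -0.88), beside 18.5% and 9.26% over all genes. Ehf, Elf5 and Grhl2 among the lower ones are also in the luminal list. Elf5, at -1.33 over all rats (edgeR adjusted p = 0.025), had the opposite call within the 6 tumours with a column of each class. There it was at 0.92 with the tumour as block (edgeR adjusted p = 0.014). Ovol2, a repressor of mesenchymal genes, differed by -1.01 ± 0.22, Trps1 by -1.14 ± 0.26 and Gata3, a luminal lineage factor, by -0.83 ± 0.22. Trps1 was not called with the rat as block (edgeR adjusted p = 0.0556). Sox9, with medians of 269 CPM against 652 CPM, differed by -0.88 ± 0.25 over all rats and was not called with the rat as block, at -0.20 (edgeR adjusted p = 0.73). Among the hormone genes, Stat5a, Gata3, Prlr and Pgr were lower, of which Stat5a was not called with the rat as block (edgeR adjusted p = 0.332). Prlr, the prolactin receptor, was at 8.96 to 212 CPM (median 59.8) against 20.2 to 549 CPM (median 184), a difference of -1.31 ± 0.37. Esr1, the oestrogen receptor gene, was not called.

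Basal and myoepithelial genes went with the matrix and not with the luminal genes. Of 11 tested, 7 were higher and 0 lower (median 1.5), beside 18.5% and 9.26% over all genes. Snai2 among the higher ones is also in the mesenchymal list. Krt14 and Krt17, basal keratins, were at 63.4 to 1041 CPM against 12.5 to 265 CPM and at 62.8 to 2445 CPM against 17.4 to 423 CPM. Their log2 fold changes were 1.96 ± 0.41 and 2.09 ± 0.39. Egfr, the epidermal growth factor receptor, differed by 1.34 ± 0.33. Krt5, Itga6, Itgb4 and Oxtr, which are also basal, were not called, so the list did not move as 1 block.

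The milk genes had the largest negative values and the least support. Csn1s2a differed by -6.69 ± 1.73, Csn2 by -4.95 ± 1.80 and Wap by -3.35 ± 1.11. Of 12 tested milk genes, 0 were called higher and 4 lower, beside 18.5% and 9.26% over all genes. Csn2, a casein gene, was at 0 to 623 CPM (median 5.06) in matrix-rich and 0 to 37989 CPM (median 11.5) in epithelium-rich units. Rat P34 held the highest value. Without P34, Csn2 differed by -1.85 (edgeR adjusted p = 0.288), Csn1s2a by -1.24 (0.261) and Wap by -0.50 (0.596). With the rat as block, Csn2 was higher in matrix-rich units, at 2.16 (adjusted p = 0.0252), while Wap was at 0.06, Csn1s2a at -0.32 and Csn3 at 0.27. Csn3, a casein gene with a median of 2276 CPM against 7866 CPM, kept its call over all rats without any single rat, at -1.79 to -1.43.

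**Figure D3:**
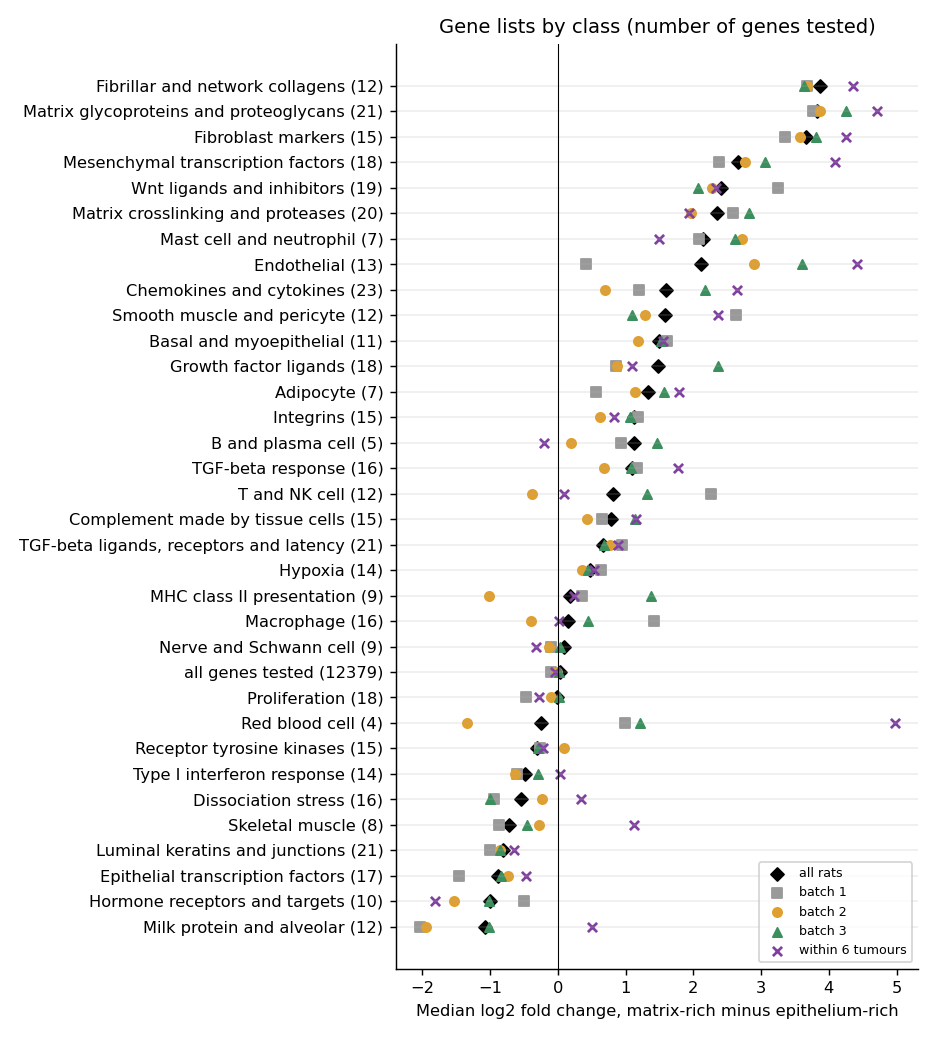
Median log2 fold change (matrix-rich minus epithelium-rich) of each gene list, with the number of genes tested, over all rats, in each batch and within the 6 tumours with both classes. Collagens (3.86) and fibroblast genes (3.66) lie far to the right in all sets, luminal genes (-0.81) lie left of 0, and the milk list changes side within tumours (0.50).

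The 6 tumours with a column of each class hold rat, tumour and treatment fixed. They are P17T1 (LY2157299), P26T2, P29T1 and P30T2 (anti-PD-L1), and P4T1 and P8T2 (vehicle). Col3a1 was 27.1, 84.4, 31.8, 35.2, 7.40 and 44.1 times higher in the matrix-rich column of these tumours in that order. Col5a1, Dcn, Eln, Pdgfra, Pdgfrb, Acta2, Rgs5, Pecam1, Krt5, Zeb1 and Cxcl12 were also above in 6 of 6 tumours. Krt14 was above in 5 of 6, Krt8 in 1 of 6 (P29T1, at 4102 against 3231 CPM), and Krt18, Cdh1 and Esrp1 in 0 of 6. Krt18, the partner of Krt8, was 1403 against 2976 CPM in P17T1, 531 against 2409 in P26T2, 1608 against 2143 in P29T1, 875 against 1506 in P30T2, 816 against 2065 in P4T1 and 759 against 1787 in P8T2.

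Several genes were not ordered by class within tumours. Ptprc, Lyz2 (lysozyme of macrophages), Cd3e, Tgfb1 and Mki67 were higher in the matrix-rich column of 3 of 6 tumours. Csn2 was higher in 5 of 6, at 623 against 221 CPM in P29T1 and 69.6 against 11.1 CPM in P17T1. Hbb, a haemoglobin gene of red blood cells, was higher in 6 of 6, from 8.78 CPM against 0 in P17T1 to 541 against 69.3 CPM in P29T1. Over all rats the 4 tested red blood cell genes were not called, and their median was -0.25. Whether blood content bears on the other values was not tested.

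**Figure D4:**
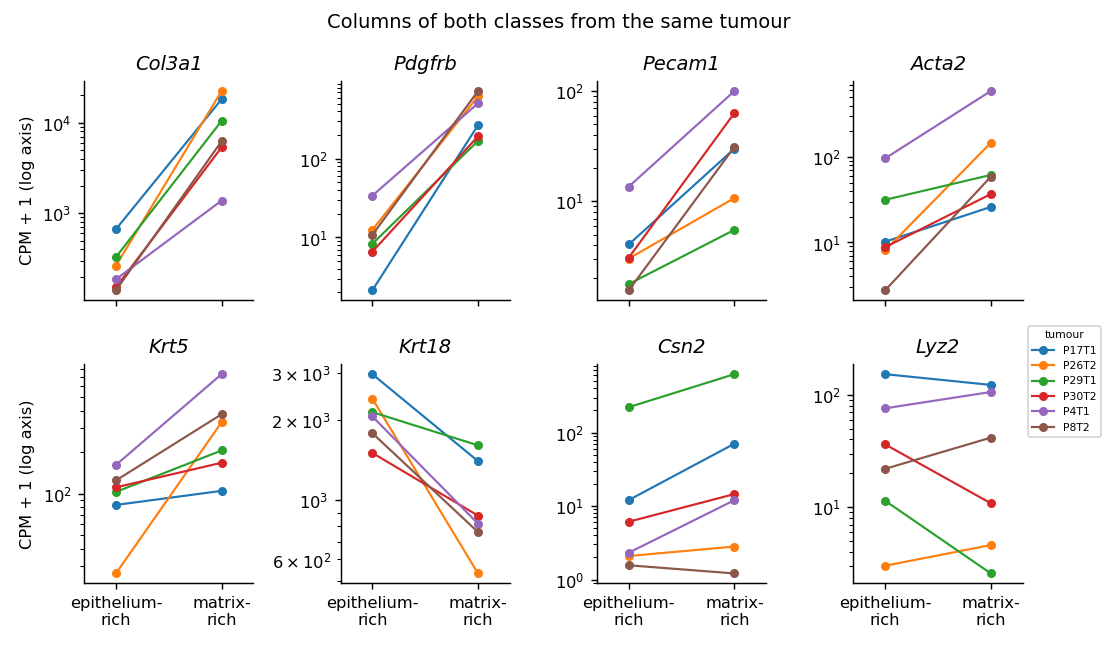
Level (CPM + 1, log axis) of 8 genes in the epithelium-rich and the matrix-rich column of each of 6 tumours, joined by a line. Lines rise for Col3a1, Pdgfrb, Pecam1, Acta2 and Krt5, fall for Krt18, rise in 5 of 6 for Csn2 and run in both directions for Lyz2 (3 of 6 up).

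In TGF-beta signalling, of 21 genes for ligands, receptors and latency, 10 were higher and 0 lower (median 0.67). Tgfbr2 was at 40.7 to 256 CPM against 0 to 55.9 CPM (log2 fold change 2.56 ± 0.32). Tgfbr1, the receptor LY2157299 inhibits, was at 14.8 to 55.3 CPM against 0.0504 to 38.1 CPM (0.94 ± 0.28). Lrrc32, which tethers latent TGF-beta to cells, differed by 4.13 ± 0.53, and Ltbp4, which stores it in matrix, by 3.48 ± 0.50. The ligand Tgfb1 was at 2.02 to 42.0 CPM against 0 to 30.7 CPM, a difference of 1.11 ± 0.39 (edgeR adjusted p = 0.0296), and was not called with the rat as block, at 0.66 (edgeR adjusted p = 0.161). Of 16 response genes 8 were higher and 0 lower (median 1.10). Over all genes 18.5% were higher and 9.26% lower. Smad7, Pmepa1 and Id1, feedback and target genes, were not called.

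Secreted signals to other cells were spread over several families. Of 23 chemokines and cytokines, 11 were higher and 2 lower, the latter near the share over all genes (9.26%). Cxcl12, which retains lymphocytes and stem cells, was at 39.1 to 933 CPM against 4.53 to 184 CPM (2.79 ± 0.38), and the macrophage growth factors Csf1 and Il34 differed by 3.28 ± 0.39 and 3.23 ± 0.47. Cx3cl1 was lower, by -0.65 ± 0.23, and Cxcl17 by -1.48 ± 0.42, and neither was called with the rat as block (edgeR adjusted p = 0.262 and 0.926), where Cxcl17 was at 0.09. Of 18 growth factor ligands 9 were higher, led by Hgf and Fgf7, ligands for epithelial receptors, at 3.94 ± 0.60 and 3.95 ± 0.74. Hgf was low, at 1.5 to 10.0 CPM against 0 to 1.71 CPM. Of 15 receptor tyrosine kinases 3 were higher (Fgfr1, Axl and Ddr2, a collagen receptor) and 1, Erbb2, was lower at -0.62 ± 0.23, which is near the shares over all genes (18.5% and 9.26%).

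Of 19 Wnt genes, 12 were higher and 1, Rspo3, lower. The higher ones included the receptor Fzd1 (2.86 ± 0.32) and the secreted antagonists Dkk2 and Dkk3 (3.51 ± 0.51 and 3.17 ± 0.46). Of 15 complement genes, 7 were higher and 1, Cfi, lower. The 1 lower gene in the Wnt list and in the complement list is no more than the 9.26% over all genes, of which 18.5% were higher. C1s and C1r, proteases of the classical pathway, were at 104.9 to 3414 CPM against 3.42 to 560 CPM and 161 to 1852 CPM against 5.19 to 597 CPM. Their inhibitor Serping1 differed by 3.77 ± 0.44. Among 15 integrins, 8 were higher and 0 lower, with Itga11, a collagen receptor of fibroblasts, at 4.49 ± 0.71 and Itgb1 at 1.13 ± 0.18.

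Both classes shared 1 upper limit on Ptprc, so its level is a description: 0.385 to 84.6 CPM per matrix-rich rat and 0.0721 to 124 CPM per epithelium-rich rat. Of 16 macrophage genes 0 were higher and 1, Cd14, lower, beside 18.5% and 9.26% over all genes. The 1 lower gene is thus no more than that share, and Cd14 was not called with the rat as block (edgeR adjusted p = 0.66). Summed macrophage levels were 145 to 3066 CPM against 333 to 4224 CPM. Of 12 T and NK cell genes 0 were called. Cd274, which encodes PD-L1, was at 0.626 to 46 CPM against 0.569 to 63.5 CPM and differed by -0.21 ± 0.44 (adjusted p = 0.762). Mast cell proteases were high in a few matrix-rich rats: Tpsab1 was at 0 to 292 CPM with a median of 2.78, against 0 to 20.5 CPM. Its log2 fold change was 5.53 ± 0.94 over all rats and 1.02 with the rat as block (adjusted p = 0.667). Of the fat genes, Adipoq and Plin1 were near 0, with medians of 0.325 and 0.123 CPM in matrix-rich columns, but the summed list of 11 was 230 to 1078 CPM against 52.4 to 438 CPM, and 3 of 7 tested (Lpl, Cfd and Pparg) were higher. Of the skeletal muscle genes, Ckm had a median of 0.289 and Acta1 of 4.47 CPM in matrix-rich columns, and the summed list was 13.9 to 575 CPM against 8.42 to 599.6 CPM.

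None of 18 proliferation genes was called, their median was -0.01, and summed levels were 221 to 1104 CPM against 212 to 1276 CPM. In the stress genes induced by dissociation, 5 of 16 were lower (Hspa1a, Hsph1, Dnajb1, Hspa1b and Atf3) and 2 higher (Nr4a1 and Dusp1). Over all genes 9.26% were lower and 18.5% higher, so the 2 higher genes are no more than that share. Hspa1a, a heat-shock chaperone, was at 179 to 2749 CPM against 446 to 11963 CPM (-1.64 ± 0.36) and at -0.49 with the rat as block (edgeR adjusted p = 0.442). Hsph1, Dnajb1 and Hspa1b also lost the call with the rat as block, at -0.39, -0.48 and -0.78 (edgeR adjusted p = 0.30, 0.335 and 0.27). Hsph1 was at -4.36 in batch 1 and 0.50 in batch 2. Of 14 hypoxia genes, 6 were higher, with Adm, a vasodilator, at 2.12 ± 0.39, and 1, Egln3, was lower over all rats. The 1 lower gene is no more than the share over all genes. Egln3 was not called with the rat as block (edgeR adjusted p = 0.492).

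Treatment was not used to choose the columns, so it can be tested. Matrix-rich columns were present in 4 of 7 vehicle rats, 4 of 7 anti-PD-L1 rats, 1 of 4 LY2157299 rats and 1 of 6 combination rats (Fisher's exact test over 4 groups, p = 0.428). By inhibitor, 2 of 10 rats (20%) that received LY2157299 had one against 8 of 14 (57.1%) that did not, a difference that did not pass the two-sided Fisher's exact test (p = 0.104). In batch 2 the counts were 1 of 8 and 4 of 10 (exact p = 0.314), and in batch 3 2 of 5 and 6 of 10 (exact p = 0.608). The direction was thus the same in both batches. The labels list unequal fractions by group, with 11 DN and 4 Ep samples for vehicle, 8 and 8 for anti-PD-L1, 4 and 4 for LY2157299 and 8 and 5 for the combination. The part of this sampling in the shares was not tested. Over rats of tumours whose labels list a DN sample, the exact p was 0.183.

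Inhibitor effects on expression within matrix-rich columns rest on 2 treated rats, P17 and P33, against 8. Of 13210 genes, 0 (0%) passed at an adjusted p under 0.05 by edgeR, where 1240 had an unadjusted p under 0.05 and the lowest adjusted p was 0.237. The count from DESeq2 was 141 higher and 100 lower. Without P24, edgeR called 203 higher and 37 lower, so 1 rat without the inhibitor changes the result. Within batch 3 alone and with batch as a covariate, 0 genes were called. The 10 genes with the smallest p were all higher with the inhibitor, with none called. Spint1, an inhibitor of epithelial proteases, was at 533 CPM in P17 and 402 in P33 against 118 to 242 CPM in the others (log2 fold change 1.59 ± 0.26). Elf3, an epithelial transcription factor, was at 807 and 813 CPM against 62.2 to 253 CPM (2.19 ± 0.37).

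Fst, which binds activins, was at 134 and 428 CPM in P17 and P33 against 20.1 to 67.8 CPM (2.68 ± 0.44). Nrg1, a ligand of Erbb receptors, was at 123 and 747 CPM against 7.90 to 68.6 CPM (3.62 ± 0.66). In each of these 4 genes the 2 treated rats lay above all 8 others, as they did in 390 of 13210 genes (2.95%), and they lay below all others in 369 (2.79%). The 4 were named for their small p, so the separation adds no support. Aloxe3, Trim47, Irak2, Cdc42ep3, Inava and Cnksr1 complete the 10. All 13 collagens tested, with the barely counted Col1a2 among them, were below 0 (median -0.41). So were 12 of 12 smooth muscle genes (median -1.09) and 17 of 18 proliferation genes (median -0.90). Luminal genes had a median of 0.61, and of 17 TGF-beta response genes 7 were above and 10 below 0. Markers of other cells differed too: 12 of 15 T and NK cell genes were above 0 (median 1.40), as were 8 of 10 mast cell and neutrophil genes (1.78), 8 of 9 MHC class II genes (1.19) and 21 of 24 chemokines and cytokines (1.23), while 6 of 6 red blood cell genes were below 0 (-3.68). The median over all genes was -0.14, and 0 members of these lists were called. The part of these cells in the other values was not tested.

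The inhibitor effect differed between classes for 2 of 14387 genes (0.0139%) by the interaction test in edgeR. Crb3, a polarity protein of tight junctions, was at 62.6 CPM in P17 and 100.96 in P33 against 14.4 to 36.7 CPM in the 8 other matrix-rich rats, and at 50.7 to 94.5 CPM with and 60.4 to 114 CPM without the inhibitor in epithelium-rich units. The difference between effects was 1.80 ± 0.31 (adjusted p = 0.0265). Spint1 differed by 1.89 ± 0.35 (adjusted p = 0.0422). With the rat as block the values were 0.57 for Crb3 and 1.16 for Spint1. P17 was the only inhibitor rat with both classes, so that fit rests on 1 treated rat and cannot check the 2 calls. In batch 3 alone 0 genes were called, with Crb3 at 2.33 and Spint1 at 2.03 (edgeR adjusted p = 0.299 for both). With batch as a covariate 48 genes were higher and 124 lower, and Crb3 (1.68, adjusted p = 0.0787) was not among them while Spint1 was (1.84, 0.0456). Without P24 edgeR called 87 higher and 151 lower. Both treated matrix-rich rats had Spint1 and Crb3 within the range of the epithelium-rich units.

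Anti-PD-L1 was compared with vehicle in matrix-rich columns of 4 rats each. Of 13897 genes, 0 (0%) passed by edgeR, 970 had an unadjusted p under 0.05 and the lowest adjusted p was 0.259. The count from DESeq2 was 36 higher and 187 lower. Without P24, a treated rat, edgeR called 11 lower, and within batch 3 or with batch as a covariate 0. The 10 genes with the smallest p were all lower, and 6 of them are known from leukocytes: Fcer1g, Aif1, Spi1, Lyz2, Cd4 and Arhgap15. Lyz2 was at 1.59 CPM in P29, 3.62 in P26, 9.86 in P30 and 13.1 in P24 against 98.3 in P8, 104.6 in P4, 168 in P5 and 271 in P6. The treated rats lay below every vehicle rat (log2 fold change -4.30 ± 0.72), as they did in 654 of 13897 genes (4.71%), and they lay above in 46 (0.331%). Lyz2 was named for its small p, so the separation adds no support.

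Fcer1g, a signalling chain of Fc receptors, was at 0.674 to 3.16 CPM in anti-PD-L1 rats against 13.4 to 50.2 CPM in vehicle rats (-4.09 ± 0.65). Of 16 macrophage genes 15 were below 0 (median -3.34), and of 15 T and NK cell genes 15 were (median -2.97), beside a median of 0.03 over all genes. Other lists differed as well: 12 of 12 smooth muscle and pericyte genes were below 0 (median -1.34), as were 11 of 13 endothelial (-1.06) and 8 of 11 basal genes (-1.17), while 13 of 14 milk genes were above 0 (2.44). None of these was called, and the part of 1 cell type in the values of another was not tested. In batch 3 alone Fcer1g was at -4.27 and Lyz2 at -4.95. The summed macrophage list was 145, 319, 739 and 935 CPM against 512, 726, 765 and 1181 CPM and overlapped. Its highest value with anti-PD-L1 was in P29, where Lyz2 was at 1.59 CPM and Ptprc at 0.385 CPM. The sum thus did not follow these genes, and which members carry it was not tested. Ptprc in these columns was 0.385 to 3.43 CPM with anti-PD-L1 and 6.2 to 31.4 CPM with vehicle, so the columns differed in leukocyte RNA beneath the limit of the rule. How this residual RNA arose was not tested. Fut2 and Gatm, enzymes of glycan and creatine synthesis, were lower by -2.55 ± 0.37 and -3.19 ± 0.48 without a call. LY2157299 and the combination were not compared with vehicle, since each had 1 matrix-rich rat.

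The deposited sample table gives 4 tumour measures that the rule did not use. Time from NMU to sacrifice, whose unit is not stated, was 89.9 ± 16.1 (SD, n = 11 rats) in rats with a matrix-rich column and 131 ± 45.9 (SD, n = 18) in rats with epithelium-rich columns only. The difference passed a two-sided permutation test with 100000 resamples (p = 0.00526, adjusted p over 4 measures = 0.021). Within batch 2 the means were 90.2 and 122 (permutation p = 0.0434, adjusted 0.164), and within batch 3 84.4 and 155 (permutation p = 0.000874, adjusted 0.0035). In vehicle rats the values were 77 to 84 against 96 to 169, with no overlap (exact permutation p = 0.0571, the smallest that 4 against 3 rats allow). In anti-PD-L1 rats they were 79 to 127 against 112 to 183 (exact permutation p = 0.286). In the other groups 1 rat each had a matrix-rich column, which allows no test. The values were 79 against 127 to 163 with LY2157299 and 79 against 79 to 238 with the combination. With NMU alone rat C9 was at 85.5 against 55 to 160, above 2 of 4. Rat values are means over tumours, and C9 had 110 for its epithelium-rich tumour C9T1 and 61 for its matrix-rich tumour C9T2. At 61 it would tie with rat C7. Why the 2 deposited values of C9 differ was not tested.

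The inhibitor groups had fewer rats with a matrix-rich column, and their mean time was 126.5 against 111 without the inhibitor. The other measures did not pass: tumour size was 19.3 ± 10.96 (SD, n = 14) against 15.4 ± 12.8 (SD, n = 18; permutation adjusted p = 0.373), growth rate 5.01 ± 3.34 (n = 10) against 2.80 ± 2.69 (n = 14; permutation adjusted p = 0.185), and the CD8 fraction 0.0504 ± 0.0421 (n = 10) against 0.110 ± 0.124 (n = 10; permutation adjusted p = 0.248). Units of size and growth are not stated. Time to sacrifice was thus shorter in rats with a matrix-rich column, and the link with sampling date or fraction was not tested.

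**Figure D5:**
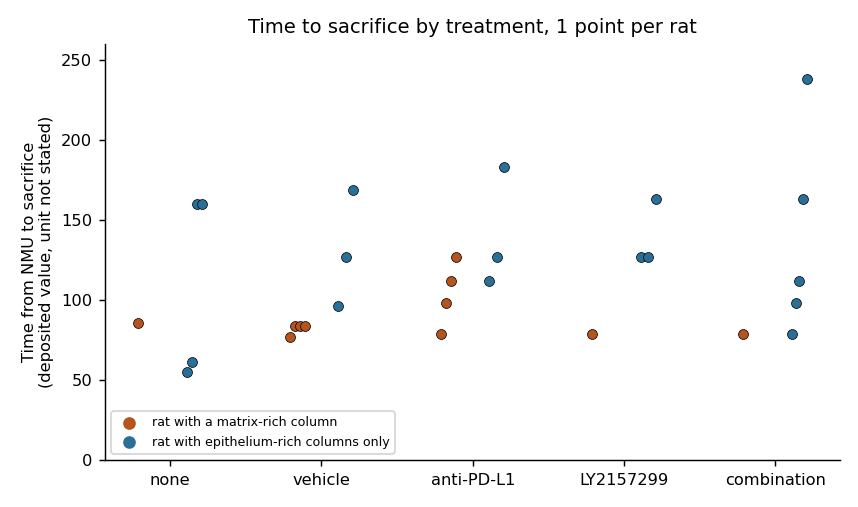
Time from NMU to sacrifice (vertical, deposited value with no stated unit) by treatment, 1 point per rat, coloured by whether the rat had a matrix-rich column. Vehicle rats with a matrix-rich column lie at 77 to 84 and the others at 96 to 169, while the anti-PD-L1 ranges overlap (79 to 127 and 112 to 183).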

How the data were processed

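Bulk RNA-seq counts of sorted tumour fractions were analysed. Collagenase at 2 mg/ml was applied to the tissue for 1 to 2 h, and under 10 ng of RNA was amplified with a SMARTer kit, per the labels' protocols. The authors deposited 1 table of raw counts per gene symbol with 17455 genes and 108 columns. The submitters' processing notes list STAR, FastQC and rn6. The counting tool and strand setting were not given in the sources used here. Overlapping, antisense and near-identical genes therefore cannot be told apart. The deposited sample table gives batch, tumour measures and a CD8 fraction (0 to 1, denominator not stated), per the file headers. Of the columns, 1 was not used. Some single genes are not reported here.

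CPM used each column's total. Counts of 1 rat and 1 class were summed and tested with edgeR 4.0.16 (R 4.3.3; TMM, filterByExpr, robust quasi-likelihood F test, Benjamini-Hochberg at 0.05), which needed counts; the SE is the log2 fold change divided by the square root of F. DESeq2 1.42.0 and limma 3.58.1 served as alternatives. Other tests were Fisher's exact test and permutation tests (scipy 1.17.1). The test was tested on simulated data. Named genes were, per comparison, the 10 called genes of largest fold change in each direction whose average log2 CPM was 3 or more, up to 4 per list and direction by smallest p, and 6 fixed genes (Ptprc, Acta2, Krt8, Tgfb1, Tgfbr1 and Cd274); with fewer than 10 calls, the 10 with the smallest p. Classes, members and gene lists were chosen with earlier results of these data known. Rats are separate animals, and the 8 with both classes pair by rat: deviations from class means correlated at 0.0626 to 0.465 within a rat. The edgeR fits over all rats and of the interaction took the 2 units of such a rat as independent, so their SE and p-values ignore this pairing. With the rat as a random block (limma voom, correlation within rat 0.5745), 3198 genes were higher and 1704 lower between the classes. Alternatives were another scaling, filters, tools, covariates, class cuts and leaving out rats. The labels mention no molecular identifiers for these low-input libraries, and their counts are not independent molecules.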

Additional observations from a re-analysis of the deposited data

Results flagged for a closer look

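Single rats stood apart from the rest of their treatment group in 10 of 80 tests. Each test took 1 gene in 1 treatment group and class of 4 to 7 rats. It used the gap of the extreme rat relative to the range. The cut is set for about 1 in 20 by chance with normally distributed values. Here CPM were used without a log, all 10 were the highest value, and the same rats entered several tests. The count of 10 can therefore not be set against that rate. Rat C7, with NMU alone, was highest of 5 epithelium-rich units for Col3a1 (7510 CPM against 9.71 to 69.3), Pdgfrb (123 CPM against 0 to 1.71) and Pecam1 (105.5 CPM against 0.216 to 3.70). Rat P36, on the combination, was highest of 5 for Pdgfrb at 55.6 CPM against 0.506 to 12.7. In epithelium-rich units Ptprc was 124 CPM in P28 (anti-PD-L1; others 0.963 to 14.9) and 36.9 CPM in P23 (combination; others 3.11 to 7.25). Acta2 was 66.2 CPM in P38 (others 7.81 to 32.2), Krt14 169 CPM in P24 (others 15.2 to 72.4), both on anti-PD-L1, and Tgfb1 17.97 CPM in P21 (LY2157299; others 5.18 to 6.95). In matrix-rich units Tgfb1 was 42.0 CPM in C9 against 14.7 to 14.9 CPM in the other 3 rats with NMU alone.

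The effect of LY2157299 differed between matrix-rich and epithelium-rich units by 1.80 on the log2 scale for Crb3 and by 1.89 for Spint1 in the interaction test. Matrix-rich units of the inhibitor groups came from 2 rats.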

How the results depend on the processing

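The class comparison (2290 higher, 1146 lower) gave 473 and 274 in rats without drug, 0 and 0 in batch 1 alone (895 and 775 at an unadjusted p under 0.05, edgeR), and 1135 and 392 in batch 2 alone. Mean CPM per rat gave 2436 lower and total-count scaling 1891 lower. Leaving out 1 rat gave 1749 to 2313 higher and 918 to 1898 lower; the lower count exceeded 1.5 times its main value without C7 (1898), C11, C17, P10 or P7. With the rat as replicate block, 91 of the 120 named genes tested kept their side of the threshold, 25 lost the call and 4 changed sign: Csn2 2.16, Wap 0.0582, Csn3 0.270 and Cxcl17 0.0868. Within the 6 tumours with both classes, tumour as replicate block, 1494 were higher, and Csn1s2a (0.288), Csn2 (1.77), Wap (0.0172), Thrsp (0.559), Csn3 (0.494), Cxcl17 (0.348), Cd14 (0.107) and Egln3 (0.426) changed sign. Over all genes, 3 had an opposite call within those 6 tumours: Csn2, Elf5 (0.922 against -1.33 over all rats) and Hmga1 (-1.01 against 1.18). Vwf reversed in batch 1 (-0.484) and Hsph1 in batch 2 (0.497). Without tumour P6T2, 1939 were higher and 1717 lower. Batches, P6T2, the 6 tumours and total-count scaling were chosen after seeing the data.

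For treatment, DESeq2 gave 141 higher and 100 lower with the inhibitor in matrix-rich columns, 36 and 187 with anti-PD-L1, and 33 and 87 for the difference between classes. Leaving out 1 rat gave 0 to 203 and 0 to 37 with the inhibitor, 0 to 11 lower with anti-PD-L1, and 0 to 87 and 0 to 151 for the difference; each highest value was without P24. For the difference, batch 3 alone gave 0 higher, and batch as a covariate gave 48 higher and 124 lower. Both batch fits were added after seeing the data. The rat as replicate block left 1 inhibitor rat with both classes, P17, so its count is not given. The cause of these changes was not tested. Shares of rats kept direction and side of the threshold under the alternatives run. Tumour measures did so in the immunotherapy cohort and with rat medians; in batch 2 time lost the threshold (adjusted p = 0.164), and in batch 3 the differences in size and growth were -5.88 and -0.0672 against 3.9 and 2.21. Low totals, down to 2353560 counts, limit genes of few CPM.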
